A study of Rattus norvegicus with 9 samples.

Results

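Muscle that neither its nerve nor a stimulator drove was compared with muscle that was either innervated or driven by current. The material was gastrocnemius, the large calf muscle, of male rats aged 8 weeks. The inactive muscle was 3 of the series' 9 libraries, chosen by label: group DN, with sciatic nerve injury and no current. The reference was the mean of the other 2 groups, with 3 libraries each. Group SHAM had a sham operation and kept its nerve. Group DN-SM had the same kind of nerve injury and was stimulated daily from surgery for 4 weeks through skin electrodes over the muscle, with square pulses of 300 ms at 2 Hz (25 V, 1 mA), during which the heel was seen to lift. SHAM and DN rats underwent the same anaesthesia and shaving, and wore the electrodes for 10 minutes with no current. All the rats were thus anaesthetised, and both DN and DN-SM lacked normal nerve supply. Missing from the labels are how the nerve was injured, the day and hour at which muscle was taken, and whether each library came from its own animal, so p-values measure the spread between these samples, which may be technical. Activity itself was not measured in the files: "inactive" is what the labels imply, not a reading.

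Motor neurons act on muscle in a pair of ways: through the contractions they trigger, and through factors released at the nerve ending. After denervation, fibres shrink, acetylcholine receptors spread beyond the old synapse, and embryonic receptor subunits and myogenic factors such as myogenin are made again. Direct electrical stimulation restores contraction but not the nerve. DN thus differs from DN-SM in the current, and from SHAM in both the nerve and its contractions.

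Libraries held 7926445 to 8893843 expected counts, and 10129 genes were tested. The muscle fibre markers, all 8 of them measured, were summed in FPKM (fragments scaled to transcript length and library depth). The sums were 147000 to 162200 in SHAM, 168900 to 182000 in DN and 179300 to 181300 in DN-SM. Every SHAM library was thus below both injured groups, although none of the 8 markers was called in the contrast described below. SHAM libraries 2 and 3 stood apart from the rest of their group: on the first principal component of all genes tested, which held 30.8% of the variance, they lay at -39.1 and 9.73, while SHAM 1 lay at -12.7, the DN-SM libraries between -11.5 and -8.45 and the DN libraries between 22.2 and 24.5. With library quality estimated from the data, their weights were the lowest, at 0.473 and 0.454 against 0.737 to 1.69 for the other 7.

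The question was which genes stood at another level in the 3 DN libraries than in both other groups. Of 10129 genes, 102 (1.01%) passed an adjusted p of 0.05 in edgeR's quasi-likelihood test of DN against the mean of SHAM and DN-SM, 62 higher (0.612%) and 40 lower (0.395%), and 36 of the 102 differed at least 2-fold. At an unadjusted p under 0.05 there were 1056 higher and 1235 lower. Whatever the p, 5097 of the 10129 were higher in DN in this contrast, which is the background for the list counts below. That contrast can be passed by a gene in which DN differs from 1 group alone, so a stricter count was made. A gene was counted as apart in DN if it passed, if all 3 DN libraries lay above or below all 6 others, and if the unadjusted p was under 0.05, with the same sign, both against SHAM and against DN-SM. This held for 80 genes (0.79%), 42 higher and 38 lower in DN. The 3 DN libraries lay outside the range of the other 6 in 975 genes (9.63%), whether or not the gene was called.

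The size of the set rested on single libraries. Without SHAM 3, 1271 genes were called and 1013 were apart. Without SHAM 2 the same counts were 209 and 149, and without SHAM 1 they were 29 and 25. Leaving out DN 1, DN 2 or DN 3 left 1, 19 and 3 genes called, and 1, 17 and 3 apart. Leaving out DN-SM 1, DN-SM 2 or DN-SM 3 left 40, 16 and 33 called, and 39, 12 and 29 apart. All 80 genes kept their sign in each of these 9 fits, which the rule that chose them largely fixes. Still called were all 80 without SHAM 2 or SHAM 3, 21 without SHAM 1, 26, 13 and 25 without DN-SM 1, 2 and 3, and 9 without DN 2, but 1 gene without DN 1 and 3 genes without DN 3. Serpina3n was called in all 9, Tmem9 in 8, and S100a4, Fscn1, Fkbp5, Ltb and the gene with ID 24737, which has no symbol in the table used, in 7.

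**Figure D1:**
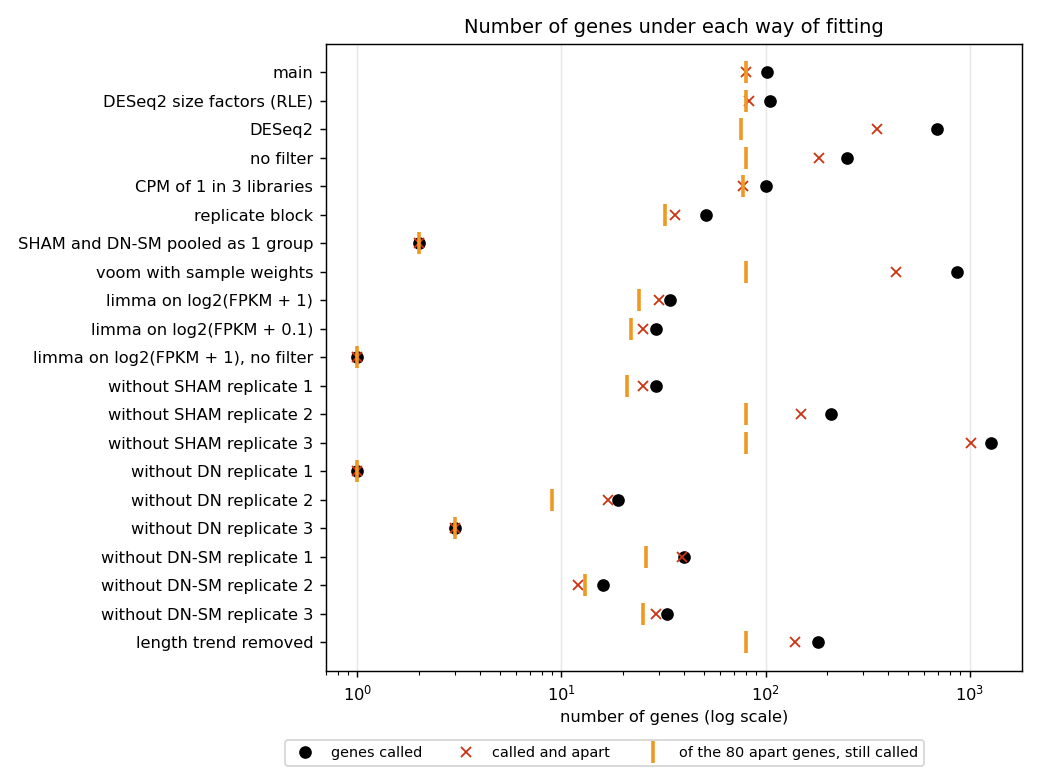
The x axis is the number of genes on a log scale, and each row is a way of fitting the data, with leave-one-out fits named by the library left out. Black points are genes called, red crosses are genes called and apart in DN, and orange bars are those of the 80 apart genes that were still called; the counts run from 1 without DN replicate 1 to 1271 called without SHAM replicate 3.

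Of the 80, 67 differed more from SHAM than from DN-SM in the fitted log2 fold change, as did 5295 of all 10129 genes tested. Set on a scale from SHAM (0%) to DN (100%), DN-SM had a median position of 39.0% in the 42 genes higher in DN and of 13.9% in the 38 lower in DN, against 38.6% over all genes tested. In 13 of the 80 it lay on the far side of SHAM, in 25 between 0 and 25%, in 28 between 25 and 50% and in 14 beyond 50%. The rule for apart genes keeps out genes with DN-SM near DN, so the choice bounds these positions, the highest being 70.9%. The genes tested as a whole were not so chosen, and their 38.6% is no like background. The difference between DN-SM and SHAM was not used to call the genes, but the further conditions for apart genes limit it. Its unadjusted p was under 0.05, toward DN, in 40 of the 62 genes called higher and in 8 of the 40 called lower. Among the apart genes this held in 21 of the 42 higher and in 6 of the 38 lower. Among all genes tested it held in 869 of 10129. Against DN-SM alone, in the same fit, 1 gene passed the adjusted p, Serpina3n, with 1784 genes at an unadjusted p under 0.05. Against SHAM, 432 of all genes passed, among them 74 of the 80, which the choice of the 80 largely fixes. Both differences share the DN libraries. In separate fits of DN with 1 other group, added after the data were seen, 156 genes passed against SHAM and 716 against DN-SM, so the order of the 2 counts turned around. Of the 80, 48 passed against SHAM, 62 against DN-SM and 31 against both. The 80 were chosen from the same libraries by both differences, so these counts are not independent of that choice.

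**Figure D2:**
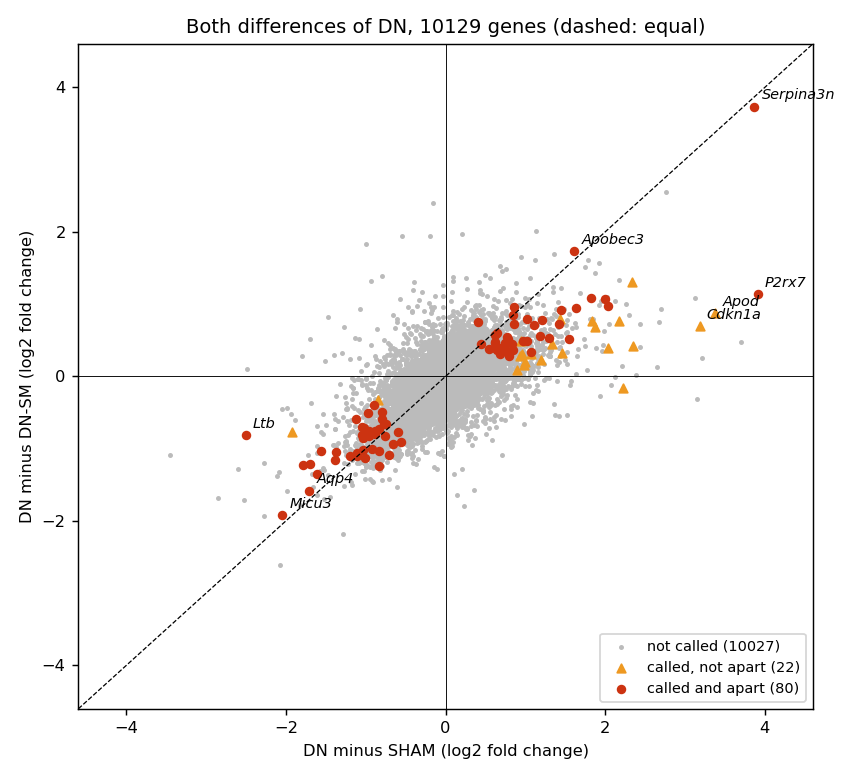
Each point is a gene, with its log2 fold change of DN over SHAM on the x axis and of DN over DN-SM on the y axis; both axes share the DN libraries, so the slope of the cloud is no result. Red points are the 80 genes called and apart in DN, orange triangles the 22 called genes that were not apart, and most red points on the right lie below the dashed line of equal differences, with Serpina3n close to it at 3.87 and 3.73.

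The promoters of 4 genes described below are shown first because they carry the letters that were searched: the protease inhibitor Serpina3n and the transcription factors Junb and Nfkb2, all higher in DN, and the water channel Aqp4, lower in DN. Each run is 300 bases, from 250 before to 50 after the gene's start, 5′ to 3′ on the gene's strand, from RefSeq on rat build GRCr8. Capitals mark a match to a motif: the STAT letters in Serpina3n, the E-box of myogenic factors in Junb, AP-1 and then NF-kB in Nfkb2, and NF-kB in Aqp4.
Serpina3n, chr6:129088142-129088441, plus strand: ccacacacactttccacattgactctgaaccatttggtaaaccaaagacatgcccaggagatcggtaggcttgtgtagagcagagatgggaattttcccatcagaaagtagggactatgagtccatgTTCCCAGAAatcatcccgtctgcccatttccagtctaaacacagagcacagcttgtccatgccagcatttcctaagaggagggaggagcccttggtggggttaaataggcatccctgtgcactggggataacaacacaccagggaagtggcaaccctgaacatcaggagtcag
Junb, chr19:40080876-40081175, plus strand: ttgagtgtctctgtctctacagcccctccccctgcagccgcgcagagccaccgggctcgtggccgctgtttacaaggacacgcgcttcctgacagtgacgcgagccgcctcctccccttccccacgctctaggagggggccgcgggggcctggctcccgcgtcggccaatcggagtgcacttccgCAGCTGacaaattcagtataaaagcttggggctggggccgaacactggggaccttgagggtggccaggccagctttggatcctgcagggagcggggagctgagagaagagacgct
Nfkb2, chr1:255108124-255108423, plus strand: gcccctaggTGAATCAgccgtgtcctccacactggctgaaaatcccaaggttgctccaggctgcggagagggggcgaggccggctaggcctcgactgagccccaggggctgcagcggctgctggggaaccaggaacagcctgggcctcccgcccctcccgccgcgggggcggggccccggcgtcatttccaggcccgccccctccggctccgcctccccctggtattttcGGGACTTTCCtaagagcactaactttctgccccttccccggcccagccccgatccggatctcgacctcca
Aqp4, chr18:6798793-6799092, minus strand: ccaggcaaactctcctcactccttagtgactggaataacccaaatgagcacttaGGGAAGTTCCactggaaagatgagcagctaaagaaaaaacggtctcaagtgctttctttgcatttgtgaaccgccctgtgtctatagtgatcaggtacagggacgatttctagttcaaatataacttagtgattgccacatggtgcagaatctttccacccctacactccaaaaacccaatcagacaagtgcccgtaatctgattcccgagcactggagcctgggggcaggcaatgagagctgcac

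A promoter was in the table for 63 of the 80 genes, 32 higher and 31 lower in DN. The E-box CAGCTG was in 8 of the 32 promoters of genes higher in DN (25.0%) and in 2 of the 31 of genes lower in DN (6.5%), against 16.3% of the 8297 promoters of all genes tested. Letters of the NF-kB motif were in 9 of 32 (28.1%) and 4 of 31 (12.9%), against 9.6%. Among genes higher in DN they were in Apobec3, Tubb6, Slc22a17, Mvp, Itga5, Grn, Nfkb2, Vim and Niban2. STAT letters, TTCNNNGAA, were in 2 (6.2%) and 5 (16.1%), against 6.5%. AP-1 letters, TGANTCA, were in 3 (9.4%) and 1 (3.2%), against 4.8%. The cAMP response element TGACGTCA was in 1 of each set, and the clock factors' E-box CACGTG in 1 of 32 and 4 of 31, against 3.3% and 9.9% of all. The CArG box and the MEF2 motif were in none of the 63, against 1.2% and 1.7% of all. Both strands were searched, motif windows may overlap, and a match is a run of letters and not a bound site. The promoters of both sets had a median GC content of 64.0%, against 61.0% over all genes tested.

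The gene with the largest difference coded a secreted inhibitor. Serpina3n, an inhibitor of serine proteases, stood at 3.79, 4.93 and 5.55 FPKM in DN. It stood at 0.30, 0.11 and 0.49 in SHAM and at 0.06, 0.39 and 0.55 in DN-SM. The 2 reference groups overlapped and every DN library was far above both. The expected counts behind these levels were 68 to 98 in DN, 2 to 9 in SHAM and 1 to 9 in DN-SM, so the low side is known only roughly. Serpina3 genes form a family of similar copies, and a second member, Serpina3m, was at 0 to 0.07 FPKM and not tested. Reads could be split between such copies, but the expected counts of Serpina3n were whole numbers in every library. Its log2 fold change over the mean of both was 3.80 ± 0.36 (SE; adjusted p = 0.00128, edgeR), and DN-SM differed from SHAM by 0.13 (95% interval -1.23 to 1.499). Of the 20 alternatives, leave-one-out fits included, it passed in all. It is below the level of 5 FPKM that the naming rule set for the largest changes, and is described because the rule names it.

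Other signals that act outside the cell went both ways. S100a4, a calcium-binding protein of motile and mesenchymal cells that is also secreted, stood at 36.2, 36.2 and 65.8 FPKM in DN, 19.5, 22.7 and 23.2 in DN-SM and 9.32, 8.23 and 13.9 in SHAM. The 3 groups did not overlap, with DN-SM between the others. In DN against the mean of both, the log2 fold change was 1.502 ± 0.21 (adjusted p = 0.0163, edgeR). Apln, the peptide ligand of the apelin receptor, rose to 6.12 to 7.37 FPKM from 2.64 to 2.96 in SHAM and 2.44 to 4.69 in DN-SM (log2 fold change 0.99 ± 0.18, adjusted p = 0.0407, edgeR). Ltb, the membrane-bound ligand lymphotoxin beta, stood at 1.27, 1.91 and 1.38 FPKM in DN, 2.25, 3.32 and 1.91 in DN-SM and 10.2, 6.87 and 7.87 in SHAM. Both injured groups were far below SHAM, and DN 2 and DN-SM 3 had the same deposited FPKM. Its log2 fold change of -1.66 ± 0.25 (adjusted p = 0.0191, edgeR) was made up of -2.51 against SHAM and -0.81 against DN-SM.

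Ltb is also a lymphocyte marker. The 12 markers written for lymphocytes, 11 of them measured and 3 tested, summed to 11.6 to 18.4 FPKM in SHAM, 6.88 to 9.22 in DN and 5.99 to 8.57 in DN-SM. Ltb itself made up 6.87 to 10.2 FPKM of these sums in SHAM, 1.27 to 1.91 in DN and 1.91 to 3.32 in DN-SM. The sums are therefore not separate from the Ltb result. The T cell marker Cd3e was near 0, with 0.57 FPKM at most, while Cd4 stood at 2.6 to 6.2. The part of lymphocyte number in the Ltb result was not tested. In whole muscle, fewer cells of a type and less RNA per cell cannot be told apart, here and in every result that follows.

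Among receptors and membrane proteins, Slc22a17, a receptor of lipocalin 2, had the most even pattern. It stood at 8.25, 8.03 and 8.07 FPKM in DN, at 5.08, 3.76 and 4.10 in SHAM and at 3.46, 4.38 and 4.80 in DN-SM. SHAM and DN-SM overlapped, and their difference was -0.01 (95% interval -0.36 to 0.35) in log2, while DN was higher by 0.85 ± 0.13 (adjusted p = 0.0214, edgeR). Its known ligand, Lcn2, was not called (log2 fold change 0.85). Tmem9, a lysosomal membrane protein, rose from 1.86 to 2.74 FPKM in SHAM and 3.54 to 4.12 in DN-SM to 6.79 to 8.74 in DN, by 1.29 ± 0.17 on the log2 scale (adjusted p = 0.0163, edgeR). Also apart and higher were Itga5, a fibronectin receptor subunit (0.61), Piezo1, a stretch-gated channel (0.64), and Cd276, an immune checkpoint protein (0.66). P2rx7, an ATP-gated channel, was apart with a log2 fold change of 2.53 at no more than 0.73 FPKM, from 14 to 22 counts in DN, 6 to 9 in DN-SM and 1 in each SHAM library. Slc22a17 was named by the rule as a list member, and the other genes of this paragraph except Tmem9, Lcn2 included, were picked after their values were seen.

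A fall of like size to that of Ltb was seen in Aqp4, the water channel that the dystrophin complex holds in the membrane of fast fibres. It stood at 2.62, 2.11 and 1.99 FPKM in DN, at 9.81, 7.39 and 4.28 in SHAM and at 5.12, 6.67 and 7.35 in DN-SM. Every DN library was below the lowest of the others, SHAM 3. The log2 fold change was -1.65 ± 0.23 (adjusted p = 0.0191, edgeR), and DN-SM and SHAM differed by -0.13 (95% interval -0.65 to 0.39). With the 6 reference libraries pooled as 1 group, Aqp4 and Serpina3n were the 2 genes called. Without DN 3, the adjusted p of Aqp4 rose to 0.148. Of the 12 tested genes of the dystrophin complex list, 1 fell, Aqp4 itself, with a list median of -0.29 against 0.00 over all genes. The syntrophin gene Sntb1, not called, stood at 0.1 to 0.4 FPKM in DN, 0.3 to 1.0 in DN-SM and 1.4 to 1.6 in SHAM.

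**Figure D3:**
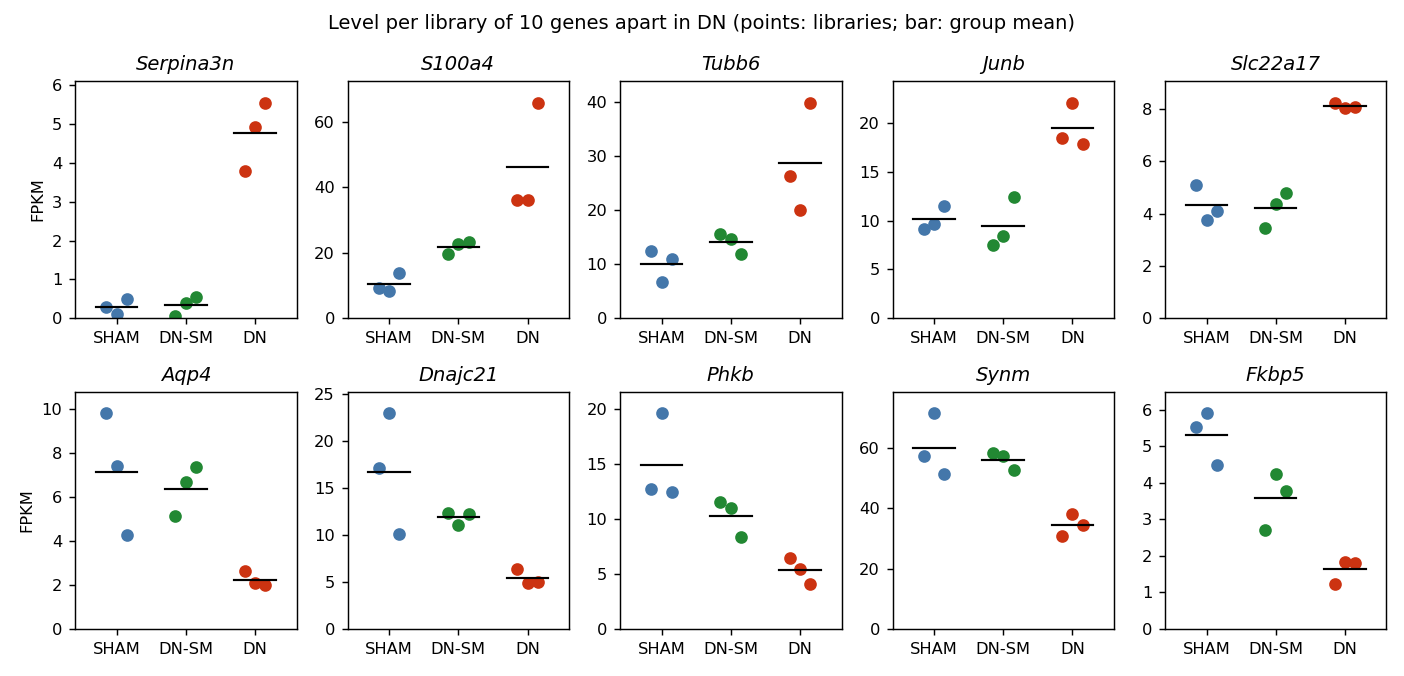
Points are the deposited FPKM of the 3 libraries of each group and the black bar is their mean, for 10 genes apart in DN, each with its own linear y axis from 0. In the upper row all DN libraries lie above both other groups, and in the lower row below them; S100a4 and Fkbp5 have DN-SM between SHAM and DN, while Serpina3n, Junb, Slc22a17 and Synm have SHAM and DN-SM at like levels.

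Junb and Nfkb2 were the transcription factors of the lists that rose. Junb, a subunit of the AP-1 factor that many cells switch on within minutes of a stimulus, stood at 18.5, 22.1 and 17.9 FPKM in DN, 9.18, 9.67 and 11.6 in SHAM and 7.51, 8.44 and 12.4 in DN-SM. The stimulated muscle was at the level of sham muscle, with a difference of -0.09 (95% interval -0.54 to 0.35) in log2, and DN was higher by 0.91 ± 0.17 (adjusted p = 0.0412, edgeR). The call was lost in 6 of the 9 leave-one-out fits, where the adjusted p reached 0.148. Of 20 tested immediate early and activity-responsive genes, Junb alone was called, and the list's median was 0.38 against 0.00 over all genes. Not called were Jund (0.55, adjusted p = 0.0926) and Ier3 (0.72, adjusted p = 0.0994). Nfkb2, which codes the p100 precursor of noncanonical NF-kB, stood at 14.3 to 20.1 FPKM in DN, 9.16 to 10.5 in SHAM and 11.02 to 13.2 in DN-SM (0.57 ± 0.11, adjusted p = 0.0439, edgeR). Of 15 tested genes of the mixed list of noncanonical NF-kB, TNF receptors and cytokines, Nfkb2 rose and Ltb fell. Ccnd1, the cyclin D1 gene, was the 1 of 11 tested proliferation genes called (0.65 ± 0.13, adjusted p = 0.0439, edgeR), and the list's median was 0.76.

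Several genes of the cytoskeleton and its regulators rose in DN. Tubb6, a beta-tubulin, stood at 26.4, 20.0 and 40.0 FPKM in DN, 12.5, 6.77 and 10.99 in SHAM and 15.5, 14.8 and 11.9 in DN-SM. DN did not overlap with the other groups, though its own libraries were spread widely. The log2 fold change was 1.18 ± 0.19 (adjusted p = 0.0283, edgeR). The alpha-tubulin Tuba1b stood at 109.5 to 141.2 FPKM in DN against 68.2 to 90.9 in the 6 others (0.60 ± 0.11). Both belong to families of similar copies, between which the authors' counting could split reads. The expected counts of Tubb6 were whole or nearly whole in every library and those of Tuba1b were not, so the level of Tuba1b is the less certain. Fscn1, which bundles actin filaments, stood at 41.6 to 49.8 FPKM in DN, 16.5 to 19.8 in SHAM and 22.1 to 32.7 in DN-SM (0.87 ± 0.12, adjusted p = 0.0163, edgeR). Marcksl1, which links actin to the membrane, had a log2 fold change of 1.04, the kinesin Kif3c of 0.76, the intermediate filament gene Vim of 0.56, and Rhoc, a small GTPase that acts on actin, of 0.54. This grouping was made after the values were seen and was not tested as a set. DN-SM was above SHAM by 0.05 in log2 in Tuba1b, by 0.17 in Rhoc and by 0.45 to 1.03 in the others.

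Several further genes higher in DN are known from blood vessels. Cdh13, an adhesion protein of endothelial and muscle cells, stood at 74.5 to 87.0 FPKM in DN, 42.9 to 51.4 in SHAM and 57.9 to 66.2 in DN-SM (0.49 ± 0.10, adjusted p = 0.0427, edgeR). Rasip1, an endothelial Ras-interacting protein, rose by 0.54, Plxnd1, a semaphorin receptor, by 0.54 and Pald1, paladin, by 0.91. The 13 endothelial markers, all tested, summed to 286.5 to 374.0 FPKM in DN, 191.7 to 237.3 in SHAM and 243.2 to 267.4 in DN-SM. None was at 0 and none was called, although 8 had an unadjusted p under 0.05 and 12 of 13 were higher in DN, with a list median of 0.39. Pecam1, their adhesion molecule, had a log2 fold change of 0.41 and an adjusted p of 0.0530. The part of vessel content in these results was not tested.

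Markers of 2 other cell types were also higher in DN than in the mean of both groups, with 1 gene of each called and neither apart. For both types the sums of DN and DN-SM overlapped. The 13 Schwann cell markers, which belong to nerve within the muscle, summed to 164.6 to 346.4 FPKM in DN, 77.2 to 85.4 in SHAM and 94.7 to 200.6 in DN-SM. All 12 tested were higher in DN, 9 with an unadjusted p under 0.05, and Ngfr, the low-affinity neurotrophin receptor of denervated Schwann cells, was called but not apart (1.30 ± 0.26, adjusted p = 0.0435, edgeR). Of 7 tested adipocyte markers, Thrsp was called (1.82) and all were higher, with sums of 110.4 to 153.5 FPKM in DN, 75.6 to 92.5 in SHAM and 99.6 to 135.4 in DN-SM. The 13 macrophage markers had a median of 0.08 with none called, and sums that overlapped, at 88.0 to 143.8 FPKM in DN, 77.9 to 138.5 in SHAM and 86.3 to 122.7 in DN-SM. Which of the 42 rises come with such cells was not tested.

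Of the rises with at least 5 FPKM, the rule also named Mgmt, an enzyme that repairs alkylated guanine. Mgmt stood at 18.9, 13.9 and 23.2 FPKM in DN, 5.72, 3.33 and 4.39 in SHAM and 8.20, 4.09 and 12.7 in DN-SM, with DN-SM 3 just under DN 2. DN was higher by 1.53 ± 0.28 in log2 (adjusted p = 0.0412, edgeR). The gene with ID 24737 (1.46), the gene with ID 24977 (0.91) and Hpdl, a mitochondrial dioxygenase-like protein (1.08), complete the 12 named rises. Among all 42, the log2 fold changes ran from 0.44 to 3.80 with a median of 0.68, and 10 were at least 2-fold. The most abundant was Lgals1, galectin-1, at 680.4 to 726.0 FPKM in DN, 353.0 to 461.4 in SHAM and 490.0 to 527.1 in DN-SM, with a log2 fold change of 0.53.

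The 38 genes lower in DN had log2 fold changes from -1.99 to -0.64 with a median of -0.91, and 15 were at least 2-fold. In 27 of them SHAM 3 was the reference library nearest to DN, and in none of the 42 rises was it the nearest. For 6 of the 38 (Asb11, Optn, Guf1, Septin7, Pcmtd2 and Ltb) the groups met or overlapped in the deposited FPKM, although they did not in TMM-scaled counts. The lower genes were also long, with a median transcript of 3136 bases against 2119 for the rises and 2184 over all genes tested. Across libraries, genes with transcripts over 3321 bases stood above those under 1490 bases by 0.14 and 0.09 in log2 in SHAM 1 and SHAM 2 and by -0.12 in SHAM 3, by -0.11 to -0.005 in DN and by -0.03 to 0.07 in DN-SM. With each library's trend with length removed, a fit added after the data were seen, all 80 genes were still called, among 180 in all.

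**Figure D4:**
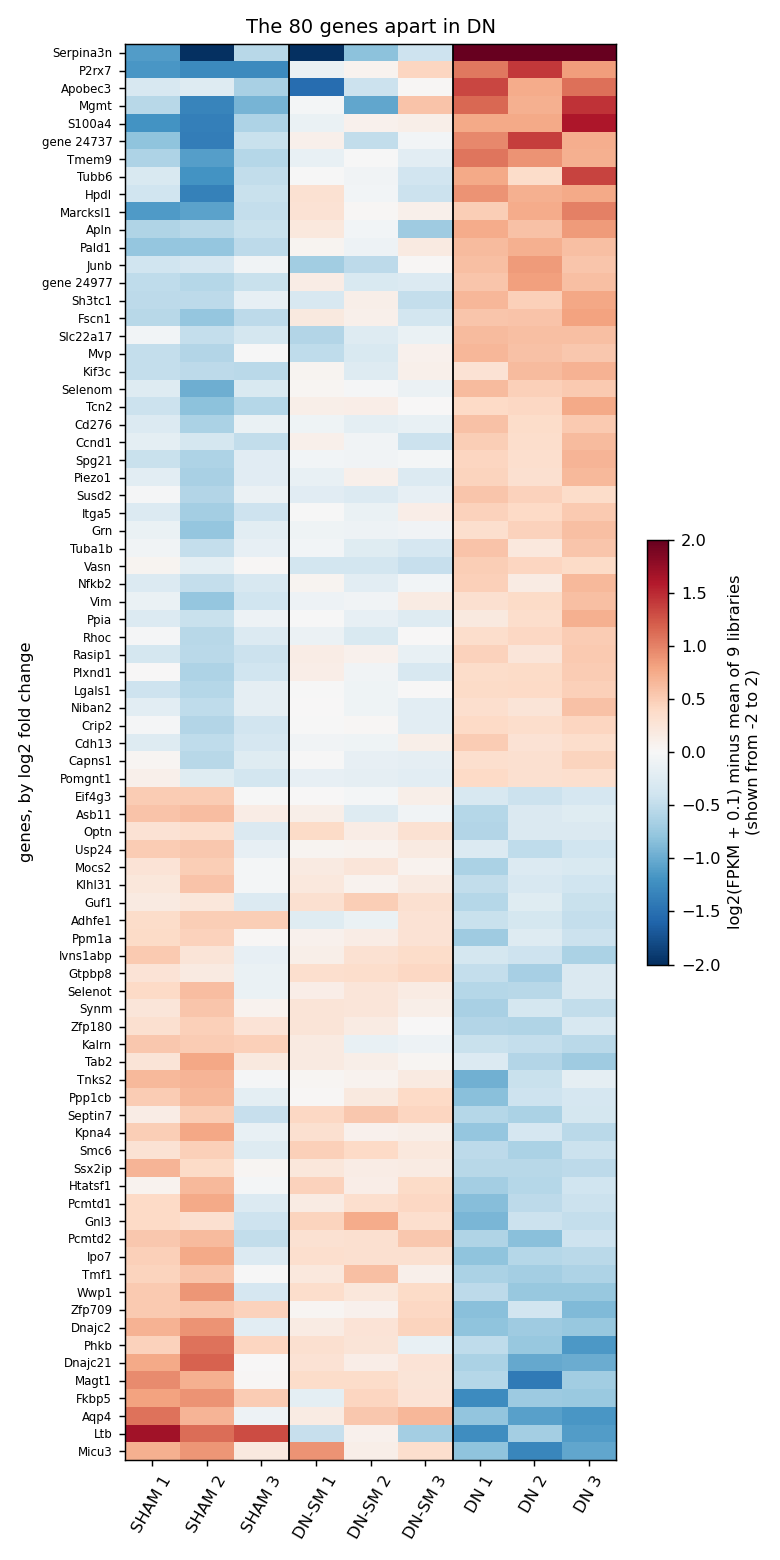
Rows are the 80 genes apart in DN, ordered by log2 fold change, columns are the 9 libraries, and the colour is log2(FPKM + 0.1) minus the gene's mean over all libraries, shown from -2 to 2. The 3 DN columns are red above and blue below; in the lower block the SHAM 3 column is paler or bluer than SHAM 1 and SHAM 2, and it is the reference library nearest to DN in 27 of the 38 genes.

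Several of the falls are known from metabolism and from the fibre's structure. Phkb, a regulatory subunit of phosphorylase kinase, which starts glycogen breakdown on a calcium signal, stood at 6.47, 5.40 and 4.11 FPKM in DN, 12.7, 19.6 and 12.4 in SHAM and 11.5, 11.03 and 8.34 in DN-SM. DN did not overlap with either group. Its log2 fold change was -1.30 ± 0.23 (adjusted p = 0.0427, edgeR). It was the 1 gene called of 26 for glycolysis and glycogen, a list with a median of -0.34, 23 of 26 members lower in DN and 12 of them at an unadjusted p under 0.05. Hk2, hexokinase 2, was not called (-0.46, adjusted p = 0.0687, edgeR). Its difference was -0.72 against SHAM and -0.20 against DN-SM, with which DN overlapped. Synm, synemin, an intermediate filament protein that ties desmin to the membrane, stood at 31.0, 38.0 and 34.6 FPKM in DN, 57.3, 71.6 and 51.3 in SHAM and 58.3, 57.3 and 52.6 in DN-SM. SHAM and DN-SM were at like levels, with a difference of -0.09 (95% interval -0.41 to 0.24), and the log2 fold change of DN was -0.84 ± 0.13 (adjusted p = 0.0215, edgeR). Micu3, a regulator of mitochondrial calcium entry, had the largest fall, -1.99, at 0.19 to 0.31 FPKM in DN from 3 to 5 counts a library.

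The remaining named falls include 3 co-chaperones, a grouping made after the values were seen; of 18 heat shock genes tested none was called, with a median of 0.23. Dnajc21, a co-chaperone of ribosome assembly, stood at 6.40, 4.86 and 4.98 FPKM in DN, 17.1, 22.9 and 10.1 in SHAM and 12.3, 11.1 and 12.2 in DN-SM. The lowest reference library was again SHAM 3, and the log2 fold change was -1.46 ± 0.25 (adjusted p = 0.0367, edgeR). Dnajc2, a co-chaperone at the ribosome, fell by 1.27 on the log2 scale. Fkbp5, a glucocorticoid-induced partner of the glucocorticoid receptor, stood at 1.24, 1.84 and 1.82 FPKM in DN, 5.54, 5.91 and 4.49 in SHAM and 2.72, 4.24 and 3.79 in DN-SM. The 3 groups did not overlap, and the log2 fold change was -1.51 ± 0.19 (adjusted p = 0.0163, edgeR). Of 18 tested glucocorticoid-responsive genes, Fkbp5 fell and the metallothionein Mt1 rose, and the median was -0.17.

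Ipo7 and Kpna4, both nuclear import receptors, fell by 1.09 and by 0.93. Wwp1, a ubiquitin ligase, fell by 1.15, and Asb11, a substrate receptor of ubiquitin ligases, fell by 0.64. Ppp1cb, a catalytic subunit of protein phosphatase 1, stood at 49.1 to 69.4 FPKM in DN, 76.0 to 136.6 in SHAM and 88.6 to 114.6 in DN-SM (-0.89 ± 0.18, adjusted p = 0.0455, edgeR). Septin7, a filament-forming GTPase, had a log2 fold change of -0.90 and stood at 6.66 to 8.08 FPKM in DN, 13.9 to 15.1 in DN-SM and 7.48 in SHAM 3, inside the range of DN. Tnks2, tankyrase 2, fell by 0.88 and Pcmtd1, a methyltransferase-like protein, by 1.03, which completes the 12 named falls with those above.

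Genes long tied to denervation mostly did not separate DN from both other groups. Of 12 tested denervation regulators, Cdkn1a and Mt1 rose and neither was apart, with a list median of 0.71. Cdkn1a, the cell cycle inhibitor p21, stood at 87.0, 37.2 and 123.4 FPKM in DN, 43.0, 43.5 and 54.8 in DN-SM and 9.09, 6.46 and 10.2 in SHAM. DN and DN-SM overlapped, and both were far above SHAM: its log2 fold change of 1.94 ± 0.30 (adjusted p = 0.0427, edgeR) was made up of 3.18 against SHAM and 0.70 against DN-SM. Myog, myogenin, stood at 33.7, 31.4 and 40.0 FPKM in DN, 20.5, 24.4 and 29.3 in DN-SM and 22.6, 13.6 and 19.2 in SHAM. The DN libraries were the 3 highest, and its 0.63 ± 0.14 just missed the threshold (adjusted p = 0.0517, edgeR).

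None of 15 neuromuscular junction genes was called, with a median of 0.30 and 7 at an unadjusted p under 0.05. Chrna1, a subunit of the acetylcholine receptor, had a log2 fold change of 0.56 (adjusted p = 0.144), and Chrng, its embryonic subunit, of 1.42 at no more than 1.7 FPKM (adjusted p = 0.166). The 2 ubiquitin ligases used as markers of atrophy were not called: Fbxo32 stood at 2.3 to 5.4 FPKM in DN, 2.8 to 3.8 in DN-SM and 7.6 to 13.9 in SHAM, and Trim63 at 72.3 to 89.8, 70.0 to 91.5 and 94.0 to 111.4. Both injured groups lay below every SHAM library in these 2 genes.

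No gene of the fibre type lists passed the test. Of 16 fast fibre genes none was called, the median was -0.29 and 6 were lower at an unadjusted p under 0.05. Myh4, the fastest myosin heavy chain, stood at 1009, 942.0 and 826.6 FPKM in DN, 2732, 2401 and 1626 in DN-SM and 1752, 6969 and 2331 in SHAM. All DN libraries were below all the others, but SHAM 2 stood far above the rest, and the log2 fold change of -1.74 ± 0.48 had an adjusted p of 0.0908 in edgeR. Of 13 slow fibre genes none was called and 12 were higher, with a median of 0.57. Myh7, the slow heavy chain, overlapped between groups, at 1360 to 1949 FPKM in DN, 805.2 to 1682 in DN-SM and 415.8 to 1477 in SHAM (0.49 ± 0.33, adjusted p = 0.414). Of 7 embryonic and neonatal sarcomere genes none was called, with a median of 0.76. Among them Actc1, cardiac actin, stood at 175.5, 88.6 and 248.9 FPKM in DN, 64.4, 42.7 and 48.2 in DN-SM and 62.5, 51.5 and 28.2 in SHAM, with DN above every other library (1.70 ± 0.31, adjusted p = 0.0518). Ppargc1a, the coactivator of mitochondrial biogenesis, was not called (-0.47 ± 0.26, adjusted p = 0.299, edgeR), nor were any of its list's 12 genes or the 20 of the respiratory chain.

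**Figure D5:**
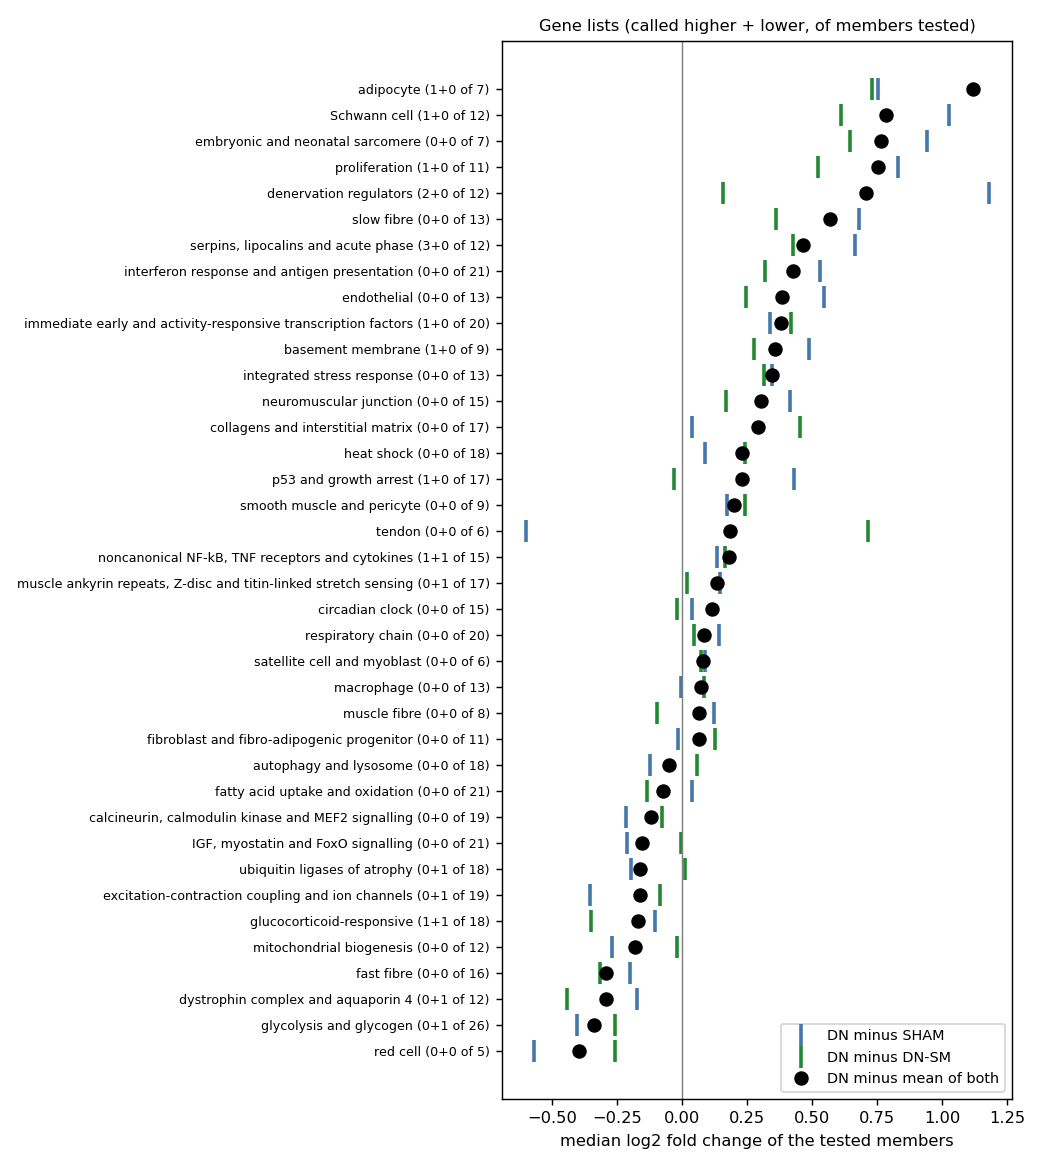
The x axis is the median log2 fold change of each list's tested members, for lists with at least 5, in DN against the mean of both groups (black points), against SHAM (blue bars) and against DN-SM (green bars); the grey line is the median of all genes tested, 0.00. Numbers beside a name give members called higher and lower, of those tested; at most 3 members of any list were called, in the list of serpins, lipocalins and acute phase genes.

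Of the 80 genes apart in DN, 11 belonged to any of the 40 lists, as did 516 of all 10129 genes tested. The lists were written with earlier results of these data known, so these shares are not read as a result. The other 22 genes called were not apart, and their choice fixes that DN-SM lies toward DN in most of them. Apod, a secreted lipocalin, stood at 35.0, 63.1 and 40.3 FPKM in DN, 24.9, 10.5 and 35.0 in DN-SM and 4.87, 3.04 and 4.74 in SHAM. It was higher in DN by 3.38 in log2 against SHAM and by 0.88 against DN-SM. Kcnj11, a subunit of the ATP-sensitive potassium channel, stood at 52.2 to 68.4 FPKM in DN, 67.0 to 74.3 in DN-SM and 98.1 to 104.3 in SHAM. In both genes DN and DN-SM met while SHAM stood clear of them. For comparison, in the same fit 299 genes were called in SHAM against the mean of the other groups and 7 in DN-SM against the mean of the other groups; these contrasts share all libraries with the one described here.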

How the data were processed

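Gastrocnemius messenger RNA of 9 libraries was read on a BGISEQ-500. The deposited expected counts are, per the file headers, RSEM-type estimates per gene, with no normalization by the authors. The deposited FPKM values were, per the file headers, scaled by the authors to transcript length and library size. The submitters' processing notes name GATK, HISAT2, RSEM and build rn6, without versions or order. Whether strand was used in counting is not given in the sources used here. A gene not listed for a library was taken as 0. Of 13752 IDs, 13649 were paired with a symbol of a RefSeq table (build GRCr8) by gene ID and 7 by accession.

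Expected counts were rounded and fitted with edgeR 4.0.16 (R 4.3.3; TMM factors, filterByExpr at 10 counts and a total of 15, robust quasi-likelihood F test, two-sided, Benjamini-Hochberg, threshold 0.05), with all 9 libraries in 1 fit with group as the only term. Changes are log2 fold changes with their standard error (SE), levels are FPKM. The procedure was tested on simulated data. Groups came from the sample labels. Alternatives were RLE factors, DESeq2 1.42.0, other filters, a replicate block, a pooled reference, limma 3.58.1 (voom with sample weights, or on log2(FPKM + 1) and log2(FPKM + 0.1)), and leaving out each library.

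By rule the text names, among apart genes that reach a mean of 5 FPKM in DN or in the others, the 12 largest rises and the 12 largest falls, per list, the 3 members of smallest adjusted p at most (not all printed), and Serpina3n, Aqp4, Myh4, Myh7, Chrna1, Chrng, Myog, Cdkn1a, Fbxo32, Trim63, Ppargc1a and Bmal1. Other genes are named from the values seen. The 40 lists held 622 entries, of which 593 were measured. The members, rule and lists were chosen with earlier results of these data known. Lists not named in the report are given in the closing section.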

Additional observations from a re-analysis of the deposited data

How the results depend on the processing

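Against 102 genes called and 80 apart in DN, RLE factors gave 105 and 83 and a CPM minimum gave 100 and 78. DESeq2 gave 689 and 351, no filter 250 and 182, limma-voom with sample weights 865 and 435, and removal of the length trend 180 and 139. A pooled reference group gave 2 and 2, limma on log2(FPKM + 1) 34 and 30, on log2(FPKM + 0.1) 29 and 25, and without a filter 1 and 1. Leaving out 1 library gave 1 to 1271 called and 1 to 1013 apart. The share of called genes that were higher in DN was 60.8%, and 38.9% with DESeq2, 42.3% with voom and 76.5% with limma on log2(FPKM + 1). With the replicate number as a replicate block, 51 genes were called and 36 were apart, 32 of them among the 80. The numbers share no origin in the labels, and deviations of same-numbered libraries correlated by -0.05 to 0.11, so the numbers were not taken to pair samples. All 80 kept their sign in every alternative in which they were tested, which the rule that chose them largely fixes. The causes of these differences were not tested. Low counts limit Serpina3n, P2rx7, Apobec3, Magt1 and Micu3.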

Other observations

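Some genes of the lists stood at like levels in both injured groups and away from SHAM, so that the contrast of DN with the mean of both missed them. Examples are the clock genes Bmal1 and Ciart; the labels do not give the hour at which any group was sampled. Bmal1, the activator of the clock, stood at 6.94 ± 1.43 FPKM in SHAM but at 1.29 ± 0.36 in DN and 1.12 ± 0.48 in DN-SM (SD, n = 3). Its log2 fold change was -1.19 ± 0.26 (SE) in DN against the mean of both (adjusted p = 0.0506, edgeR), and DN differed from DN-SM by 0.10 ± 0.31. Ciart, a repressor of the clock, stood at 1.00 ± 0.64 FPKM in SHAM but at 9.62 ± 2.33 in DN and 11.3 ± 4.28 in DN-SM. Of 15 clock genes none was called, with a median of 0.12. Per2, another clock gene, stood at 1.29 ± 0.19, 3.88 ± 0.31 and 5.26 ± 0.64 FPKM in SHAM, DN and DN-SM, with the injured groups apart from each other. Ankrd1, a titin-linked ankyrin repeat protein, stood at 4.83 ± 2.03, 27.3 ± 7.38 and 25.0 ± 9.06 FPKM in SHAM, DN and DN-SM. Asb2, a substrate receptor of ubiquitin ligases, went the other way, with 600.0 ± 58.0, 277.6 ± 54.1 and 219.3 ± 23.8 FPKM.

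Xirp2, an actin-binding protein of the myotendinous junction and intercalated disc, was highest in stimulated muscle: it stood at 47.5 ± 4.32 FPKM in DN, 59.9 ± 21.0 in SHAM and 92.8 ± 3.67 in DN-SM, and was not called (adjusted p = 0.0705, edgeR). The other lists had these medians of log2 fold change in DN against the mean of both: muscle fibre 0.07, calcineurin and MEF2 signalling -0.12, Z-disc and stretch sensing 0.14 (Synm called), excitation-contraction coupling -0.16 (Kcnj11 called), fatty acid use -0.07 and mitochondrial biogenesis -0.18. They were 0.08 for the respiratory chain, -0.16 for atrophy ligases (Asb11 called), -0.05 for autophagy, -0.15 for IGF and FoxO signalling, 0.23 for p53 (Cdkn1a called), 0.35 for the integrated stress response and 0.23 for heat shock. They were 0.29 for collagens, 0.36 for basement membrane (Col4a1 called), 0.42 for interferon response and 0.47 for serpins and lipocalins (Serpina3n, Apod and Slc22a17 called). For the list of noncanonical NF-kB, TNF receptors and cytokines the median was 0.18. The remaining medians were 0.07 for fibroblasts, 0.08 for satellite cells, 0.19 for tendon, 0.20 for smooth muscle, -0.10 for neutrophils and mast cells and -0.40 for red cells.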
